A study of Felis catus with 6 samples.

Results

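The genes CD28, CD80, CTLA4, PDCD1, LAG3 and TOX, which set the strength of a T cell response, were followed in oral mucosa of cats with feline chronic gingivostomatitis (FCGS), a painful immune-mediated inflammation of the mouth. These 6 were chosen by name from 21529 Ensembl gene identifiers: ENSFCAG00000014271 (CD28), ENSFCAG00000009585 (CD80), ENSFCAG00000014272 (CTLA4), ENSFCAG00000014287 (PDCD1), ENSFCAG00000006886 (LAG3) and ENSFCAG00000005993 (TOX). The study compared lesions with adjacent healthy mucosa of the same 3 cats, which the labels call Bart, Jerome and Sadie, in 6 RNA libraries with 1 library per cat and tissue. All 3 cats had FCGS, so the healthy mucosa came from diseased animals and stands for no unaffected cat. FCGS cats of the study had no teeth left, received buprenorphine for pain, and received neither immunosuppressive drugs nor antibiotics. The ages of the sequenced cats were not given in the labels, which call both tissues gingival, whereas the methods place the biopsies beside the palatoglossal folds.

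A T cell needs a second signal besides its antigen receptor. CD28 on the T cell delivers it when it binds CD80 or CD86 on an antigen-presenting cell. CTLA4, a relative of CD28 that is induced by activation, binds the same ligands more tightly and restrains the response. PDCD1 (PD-1) is another inhibitory receptor of that family, LAG3 is an inhibitory receptor related to CD4 that binds MHC class II, and TOX is a nuclear protein needed for the exhausted state of chronically stimulated T cells. In inflamed mucosa, costimulatory and inhibitory genes are often transcribed by the same activated T cells. CD80 is made mainly by antigen-presenting cells, and CTLA4 and PDCD1 are also transcribed by regulatory and follicular helper T cells.

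Values are FPKM, in which fragments are divided by transcript length and library size, so that levels can be compared between genes. Names were available only for identifiers whose averages differed at least 2-fold between the tissues in the study, so all 6 genes had to differ to be recognised. A rise of these genes is therefore a description, and the fitting background is the 1292 named identifiers that were higher in lesions. Differences are log2 values, lesion minus healthy, with FPKM below 1 raised to 1, and were tested with limma over the 13327 identifiers that reached 1 FPKM in 3 or more of the 6 libraries. An adjusted p (Benjamini-Hochberg over all identifiers) below 0.05 counts as a call. This fit had tissue as its only term, so it did not use the pairing by cat, and differences between cats stayed in its error. A fit that adds the cat as a block uses the pairing and is given beside it. All 6 genes passed the filter, but TOX did so only through its 3 lesion libraries and thus had to differ.

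The tissues were complex. The 10 T cell markers with a name summed to 75.6, 215 and 201 FPKM in healthy mucosa and to 259.8, 605 and 739 FPKM in lesions of Bart, Jerome and Sadie. Skeletal muscle markers did not follow the tissue labels: they summed to 1.40, 7.36 and 1419 FPKM in healthy mucosa and to 2.03, 3053 and 2658 FPKM in lesions. The keratinocyte gene KRT4 was listed at 0 in the healthy mucosa of Jerome and Sadie and reached 2089 FPKM in that of Bart, against 8.99, 2534 and 569 FPKM in lesions (an exact 0 can be a failed estimate). KRT4 was thus no steady measure of epithelium in these values. KRT10, the other keratinocyte marker with a name, was at 5.27, 2.39 and 2.31 FPKM in healthy mucosa of Bart, Jerome and Sadie. In their lesions it was at 0.467, 2.23 and 1.56 FPKM. The part of muscle and epithelium in the differences given here was not tested.

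All 6 genes were higher in the lesion than in the healthy mucosa of each cat, and for each of them every lesion value lay above every healthy value. With FPKM raised to at least 1, mean folds ran from 2.43 for TOX to 5.56 for CD80, and those of TOX and CTLA4, which had healthy values under the floor, are lower bounds. Of these genes 5 (CD28, CD80, CTLA4, LAG3 and TOX) were called higher, and the exception was PDCD1. TOX had to be higher because of the filter, so its call adds no evidence. The background was 5.31% called higher among all identifiers tested and 31.5% among the named identifiers that were higher. The median difference of the 6 genes was 2.23 on the log2 scale, against 1.61 over those named identifiers and -0.07 over all 13327. Separation of all lesion from all healthy values was seen in 68% of the named and higher identifiers and in 16.7% of all. With the cat as a block in the fit, all 6 were called, against 12.2% of all identifiers and 68.9% of the named and higher ones.

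The calls depended on single libraries, as did those over all identifiers. Without the healthy library of Jerome 1 of the 6 genes was called, and without the healthy library of Sadie, the lesion library of Jerome or the lesion library of Sadie, limma called 0 of 6 at an adjusted p below 0.05, although all 6 had an unadjusted p below 0.05. Without all libraries of Bart 3 genes were called, and without those of Jerome or Sadie 0, where 6 and 5 had an unadjusted p below 0.05. Over all 13327 identifiers 707 were called higher with every library in the fit. This fell to 68 without the healthy library of Jerome and to 1 without that of Sadie. It was 173 without the lesion library of Jerome and 0 without that of Sadie. With all libraries of Bart left out it was 1036, and with those of Jerome or Sadie left out 0. Cell numbers and RNA per cell cannot be told apart in whole tissue.

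**Figure D1:**
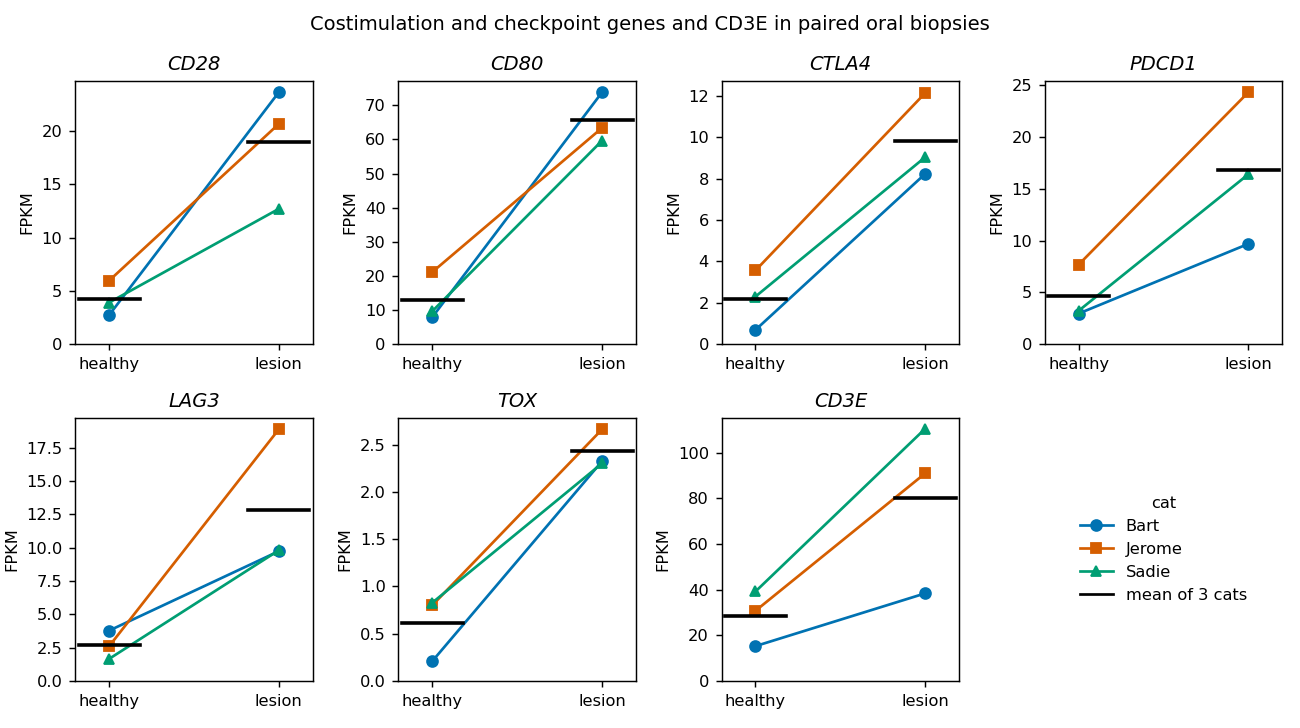
FPKM (linear axis from 0, a different scale in each panel) of the 6 genes and CD3E in healthy mucosa and lesions, with points and lines for the cats Bart, Jerome and Sadie and a black bar for the mean of 3 cats. In each of the 6 genes the lowest lesion value lies above the highest healthy value, whereas for CD3E the lesion of Bart (38.3 FPKM) lies below the healthy mucosa of Sadie (39.2 FPKM).

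CD28, the receptor for the second signal, had healthy values of 2.72 (Bart), 5.95 (Jerome) and 3.90 (Sadie) FPKM and lesion values of 23.6, 20.7 and 12.7 FPKM in the same order of cats. The lesion of Bart was highest and its healthy mucosa lowest, so this cat had the widest gap, 8.68-fold against 3.47-fold in Jerome and 3.25-fold in Sadie. The mean rose from 4.19 ± 1.64 to 19.0 ± 5.65 FPKM (SD, n = 3), a log2 difference of 2.20 ± 0.39 (SE, limma, adjusted p = 0.0275).

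CTLA4 was the lower expressed of the receptor pair that shares CD80 and CD86. Its healthy values were 0.691, 3.56 and 2.30 FPKM and its lesion values 8.23, 12.1 and 9.04 FPKM. Jerome was highest in both tissues, and the healthy mucosa of Bart fell under the floor of 1 FPKM. The log2 difference was 2.26 ± 0.50 (SE, limma, adjusted p = 0.0405), from per-cat differences of 3.04, 1.77 and 1.97. In the cat assembly F.catus_Fca126_mat1.0 CTLA4 and CD28 lie on the same chromosome, C1, with 2 other annotated loci between them.

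PDCD1 was at 2.96, 7.68 and 3.23 FPKM in healthy mucosa and at 9.69, 24.3 and 16.4 FPKM in lesions. Jerome was again highest in both tissues, and the gap between its healthy value and the lesion of Bart was narrow. The log2 difference of 1.91 ± 0.51 (SE) missed the threshold (limma, adjusted p = 0.062) and was called with the cat as a block (adjusted p = 0.0219). The per-cat differences of PDCD1, 1.71, 1.66 and 2.34, varied less than its levels did.

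LAG3 showed another order of cats. Its healthy values were 3.77, 2.59 and 1.65 FPKM and its lesion values 9.73, 18.9 and 9.80 FPKM. Bart, the cat with the widest gap in CD28, CD80 and CTLA4, had the highest healthy LAG3 and the narrowest gap, 2.58-fold, against 7.28-fold in Jerome and 5.94-fold in Sadie. The log2 difference was 2.27 ± 0.43 (SE, limma, adjusted p = 0.03).

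CD80, the ligand shared by CD28 and CTLA4, was the most abundant of the 6 transcripts. It was at 7.93, 21.1 and 9.66 FPKM in healthy mucosa and at 73.8, 63.4 and 59.6 FPKM in lesions. The lesions lay close together (65.6 ± 7.34 FPKM, SD, n = 3), while the healthy mucosa of Jerome stood above that of the other cats. The log2 difference was 2.48 ± 0.39 (SE, limma, adjusted p = 0.0234), the largest of the 6 with the floor, with per-cat folds of 9.31, 3.00 and 6.17.

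TOX, the nuclear regulator, was the least abundant. Its healthy values of 0.209, 0.800 and 0.828 FPKM all lay under the floor, and its lesion values of 2.33, 2.66 and 2.30 FPKM were nearly equal. The log2 difference of 1.28 ± 0.22 (SE, limma, adjusted p = 0.0254) is measured from the floor and understates the gap between the deposited values, whose means were 0.612 ± 0.35 and 2.43 ± 0.202 FPKM (SD, n = 3). Because healthy TOX was constant after flooring, its small SE reflects that step as well as the lesions.

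In healthy mucosa the order by mean FPKM was CD80, PDCD1, CD28, LAG3, CTLA4 and TOX, and only CD80 and PDCD1 were neighbours with ranges that did not overlap. In lesions the order was CD80, CD28, PDCD1, LAG3, CTLA4 and TOX. There CD80 stood apart from CD28, and CTLA4 from TOX, while the ranges of the other neighbours overlapped. The exchange of CD28 and PDCD1 between the tissues lay within these overlaps: in lesions CD28 exceeded PDCD1 in 1 of 3 cats.

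CD3E encodes a chain of the CD3 complex, present on mature T cells in general, and served as a measure of T cell RNA. It was at 15.2, 30.7 and 39.2 FPKM in healthy mucosa and at 38.3, 90.9 and 110.5 FPKM in lesions. The levels differed widely between cats and the tissues overlapped, but the per-cat differences of 1.33, 1.57 and 1.5 were alike. CD3E was not called with tissue alone (log2 difference 1.46 ± 0.52, SE, limma, adjusted p = 0.118). It was called with the cat as a block (adjusted p = 0.0216) and without the libraries of Bart (adjusted p = 0.0331).

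Relative to CD3E, none of the 6 genes differed beyond the spread of the libraries. When the log2 value of CD3E was subtracted from every identifier in each library, limma called 0 of 6, with 0 also at an unadjusted p below 0.05 and 0 with the cat as a block, against a background of 0.233% (1.7% with the block) of identifiers called higher. The lowest adjusted p was 0.248 with tissue alone and 0.0764 with the block, both for CD80. The intervals were wide: those of PDCD1 and TOX reached past a 2-fold change in both directions, and those of the other genes past a 2-fold rise.

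CD80 amounted to 52.0%, 68.8% and 24.7% of CD3E in the healthy mucosa of Bart, Jerome and Sadie, and to 192%, 69.7% and 54% in their lesions. The relative difference was 1.01 on the log2 scale (95% interval -0.50 to 2.52). It was large in Bart (1.89) and Sadie (1.13) and almost 0 in Jerome (0.02).

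CD28 amounted to 17.9%, 19.4% and 9.96% of CD3E in healthy mucosa and to 61.6%, 22.7% and 11.5% in lesions. Its relative difference of 0.74 (95% interval -0.92 to 2.40) came mostly from Bart, at 1.79, against 0.23 in Jerome and 0.21 in Sadie. CTLA4 was likewise highest in Bart, with relative differences of 1.71 (Bart), 0.20 (Jerome) and 0.48 (Sadie) and a mean of 0.80 (95% interval -0.78 to 2.37). Without the floor CTLA4 was 4.54%, 11.6% and 5.88% of CD3E in healthy mucosa and 21.5%, 13.3% and 8.18% in lesions.

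LAG3 had the opposite pattern across cats. It amounted to 24.7%, 8.45% and 4.22% of CD3E in healthy mucosa and to 25.4%, 20.8% and 8.87% in lesions, so the relative differences were 0.04 for Bart, 1.30 for Jerome and 1.07 for Sadie. The mean relative difference was 0.80 (95% interval -0.97 to 2.57). With 1 pair per cat this contrast between cats was not tested.

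PDCD1 was 19.4%, 25.0% and 8.25% of CD3E in healthy mucosa and 25.3%, 26.7% and 14.8% in lesions, a relative difference of 0.44 (95% interval -1.10 to 1.99). TOX had a relative difference of -0.19 (95% interval -1.84 to 1.47), and its sign rests on the floor. From the values as deposited, TOX was 1.37%, 2.61% and 2.11% of CD3E in healthy mucosa and 6.07%, 2.93% and 2.09% in lesions, a mean log2 difference of 0.77 that came from Bart. The ratios to CD3E overlapped between the tissues for each of the 6 genes.

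**Figure D2:**
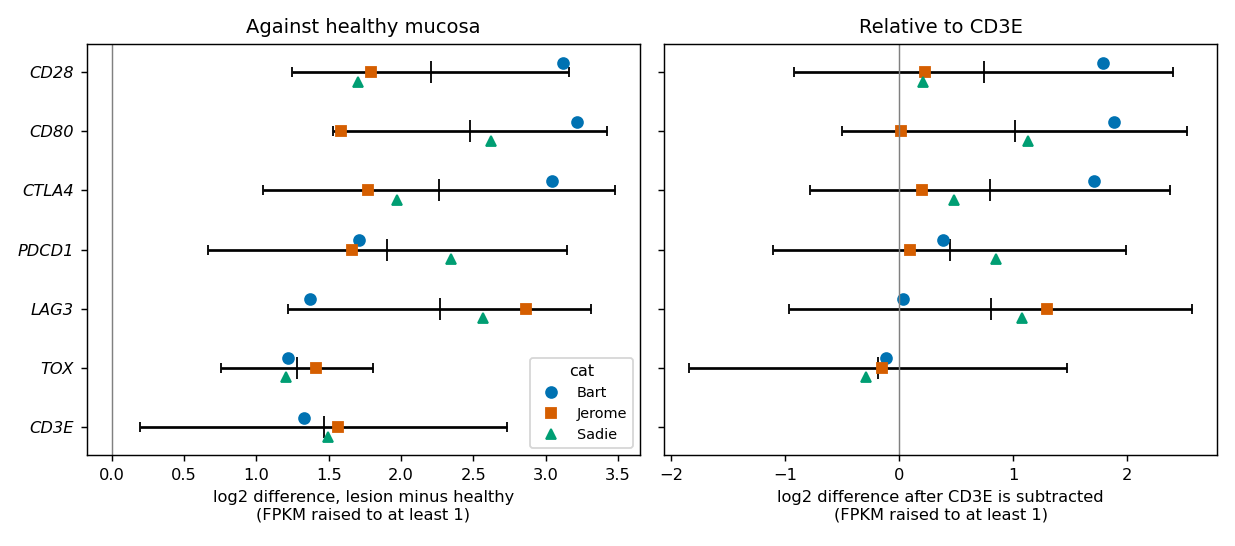
Log2 difference between lesion and healthy mucosa (FPKM raised to at least 1) of each gene, before (left) and after (right) CD3E was subtracted, with coloured symbols for the 3 cats and a black tick and bar for the limma estimate and its 95% interval. The intervals are from the fit with tissue alone. On the left all symbols lie above 0. On the right every interval spans 0, with Bart highest for CD28 (1.79), CD80 (1.89) and CTLA4 (1.71), and near 0 for LAG3 (0.04).

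The choice of reference moved these values. The median relative difference over the 6 genes was 0.77 with CD3E, 0.30 with CD3D, -0.10 with CD3G and 0.32 with the mean of the 3 CD3 chains. With PTPRC (CD45), which all leukocytes carry, it was 0.18. CD3G itself had a difference of 2.33 ± 0.61 (SE, limma, adjusted p = 0.058, and 0.0254 with the cat as a block). PTPRC had one of 2.05 ± 0.37 (SE, limma, adjusted p = 0.0275). CD3G thus had the larger estimate among the CD3 chains. Against it, with the floor, 5 of the 6 genes had negative values, from -0.0657 for LAG3 to -1.05 for TOX. From the values as deposited, the mean difference against CD3G was 0.106 for CTLA4 and -0.103 for TOX. That of TOX was then 0.30 with CD3D and 0.18 with PTPRC. No reference gave a call for any of the 6 genes, with or without the cat as a block, in limma, nor an unadjusted p below 0.05. PDCD1 had a negative difference against CD3D, CD3G, the mean of the CD3 chains and PTPRC.

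**Figure D3:**
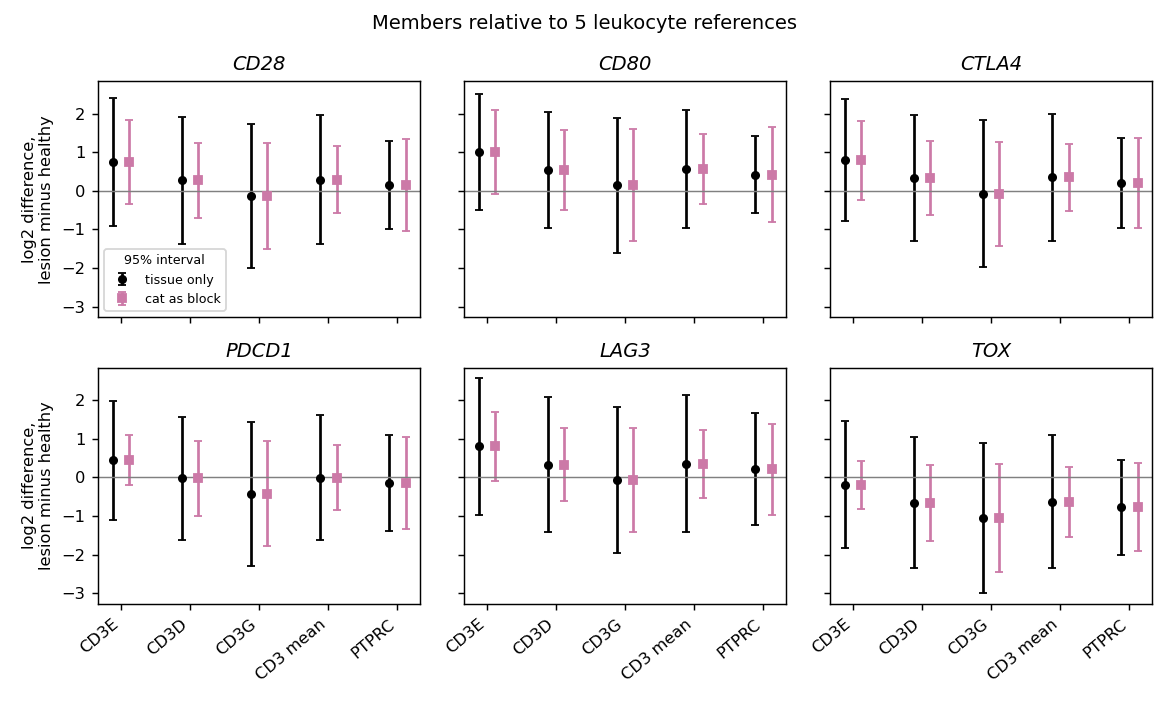
Log2 difference between lesion and healthy mucosa of each gene after subtraction of CD3E, CD3D, CD3G, the mean of the 3 CD3 chains or PTPRC, with 95% limma intervals for tissue alone (black) and with the cat as a block (pink). All intervals span 0, and TOX, with the floor of 1 FPKM, lies below 0 for each reference, from -0.19 with CD3E to -1.05 with CD3G. From the values as deposited (not drawn), its mean difference was 0.77 with CD3E, 0.30 with CD3D, 0.18 with PTPRC and -0.103 with CD3G.

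Ratios among the members compare the inhibitory genes with CD28 within each library. CTLA4 was 0.367, 0.598 and 0.590 of CD28 in healthy mucosa (the first after the floor) and 0.349, 0.588 and 0.712 in lesions. The pair thus kept nearly the same ratio in Jerome, while the floor set the healthy ratio of Bart. PDCD1 was 1.09, 1.29 and 0.828 of CD28 in healthy mucosa and 0.410, 1.18 and 1.29 in lesions. LAG3 was 1.38, 0.436 and 0.423 of CD28 in healthy mucosa and 0.412, 0.914 and 0.773 in lesions. In the lesion of Bart both ratios were the lowest of the 6 libraries. CD80 was 2.91, 3.55 and 2.48 times CD28 in healthy mucosa and 3.12, 3.07 and 4.70 times in lesions. TOX, floored in healthy mucosa, was 0.367, 0.168 and 0.256 of CD28 there and 0.0985, 0.129 and 0.182 in lesions. Healthy TOX was at 0.209, 0.800 and 0.828 FPKM as deposited, so these healthy ratios are upper bounds. A fall of TOX against CD28 cannot be read from them, nor from the test that follows, which used the floored values. A two-sided exact permutation test of the log2 ratios gave p between 0.2 (TOX) and 1 for the 5 ratios (adjusted p = 1 for each), where 0.1 is the smallest p that 3 against 3 libraries allow.

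The CD28 and B7 families were followed from fixed lists, of which only genes with a name could be seen. For this list and those that follow, the background is the 31.5% of named and higher identifiers called, or 68.9% with the cat as a block. Of 5 CD28 family receptors 4 had a name, and 2 (CD28 and CTLA4) were called higher, or 3 with the cat as a block. BTLA, an inhibitory receptor that binds TNFRSF14, was at 0.568, 0.653 and 0.610 FPKM in healthy mucosa and at 1.60, 2.73 and 5.91 FPKM in lesions (1.56 ± 0.49, SE, limma, adjusted p = 0.0869). Like TOX, it reached 1 FPKM in lesions alone, which fixed the separation of the tissues. BTLA passed neither fit (adjusted p = 0.07 with the block) and was called without the lesion library of Bart (adjusted p = 0.0413).

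Of 9 B7 family ligands 5 had a name, and 4 were called higher, or 5 with the cat as a block. CD86, the other ligand of CD28 and CTLA4, was at 5.43, 15.1 and 8.32 FPKM in healthy mucosa and at 26.9, 37.5 and 34.1 FPKM in lesions (1.89 ± 0.40, SE, limma, adjusted p = 0.0373). CD80 exceeded CD86 in all 6 libraries. VSIR (VISTA), an inhibitory B7 protein abundant on myeloid cells, was the highest of the family in lesions, with 25.2, 31.6 and 52.9 FPKM in healthy mucosa and 204, 135 and 124 FPKM in lesions (2.11 ± 0.34, SE, limma, adjusted p = 0.0243).

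PDCD1LG2 (PD-L2), a ligand of PDCD1, was at 1.76, 1.56 and 0.739 FPKM in healthy mucosa and at 3.76, 3.13 and 3.30 FPKM in lesions (1.27 ± 0.30, SE, limma, adjusted p = 0.0464). With the cat as a block both PDCD1LG2 (adjusted p = 0.038) and its receptor PDCD1 were called. CD276 (B7-H3), also made by stromal cells, was at 28.0, 6.89 and 9.36 FPKM in healthy mucosa and 66.5, 26.3 and 24.1 FPKM in lesions. Bart was highest in both tissues, the tissues overlapped, and CD276 was called only with the cat as a block (1.51 ± 0.64, SE, limma, adjusted p = 0.17, and 0.0237 with the block). ICOS, ICOSLG and CD274 (PD-L1) had no name here and were not analysed.

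Of 14 other inhibitory receptors and ligands 4 had a name, and 2 were called higher, LAG3 and PVR. With the cat as a block 3 were called. PVR, a ligand of TIGIT and CD226, was at 5.01, 3.39 and 4.66 FPKM in healthy mucosa and at 18.1, 10.8 and 10.3 FPKM in lesions (1.56 ± 0.32, SE, limma, adjusted p = 0.0355). CD244, a SLAM family receptor of cytotoxic cells, had a difference of 1.11 ± 0.51 (SE, limma, adjusted p = 0.194, and 0.0327 with the block). HAVCR2 and TIGIT had no name here.

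Of 16 costimulatory genes of the TNF superfamily 6 had a name, and 1 was called higher, or 3 with the cat as a block. TNFRSF9 (4-1BB), a receptor induced on activated T cells, was at 1.82, 1.41 and 0.630 FPKM in healthy mucosa and at 4.53, 5.87 and 6.26 FPKM in lesions (2.01 ± 0.32, SE, limma, adjusted p = 0.0235). TNFSF14 (LIGHT), which binds the same receptor as BTLA, had a difference of 1.36 ± 0.42 (SE, limma, adjusted p = 0.0869). TNFSF18 (GITR ligand) was at 4.73, 2.59 and 2.33 FPKM in healthy mucosa and at 0.708, 1.84 and 1.67 FPKM in lesions. It was lower in the lesion of each cat and did not pass the test (-1.07 ± 0.40, SE, limma, adjusted p = 0.129, and 0.161 with the block).

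Of 11 genes of the CD2, SLAM and CD5 families 7 had a name; 2 were called higher, and 7 with the cat as a block. SLAMF6, an adhesion receptor of lymphocytes, was at 0.977, 3.66 and 0.812 FPKM in healthy mucosa and at 11.9, 10.2 and 8.74 FPKM in lesions (2.72 ± 0.56, SE, limma, adjusted p = 0.0347). SLAMF1 had a difference of 1.96 ± 0.46 (SE, limma, adjusted p = 0.0464). CD48, the ligand of CD2 and CD244, had one of 2.30 ± 0.56 and missed the threshold (limma, adjusted p = 0.0508, and 0.0292 with the block).

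Of 19 transcription factors of T cell activation and exhaustion 9 had a name, and 4 were called higher: TOX, NFATC1, BATF and IKZF1, the last named after its values were seen. TOX reached 1 FPKM in lesions alone and so had to differ. NFATC1, which carries calcium signals of the antigen receptor to the nucleus, was at 10.4, 6.78 and 8.05 FPKM in healthy mucosa and at 26.0, 20.9 and 21.7 FPKM in lesions (1.46 ± 0.24, SE, limma, adjusted p = 0.0252). BATF, an AP-1 factor of activated and exhausted T cells, was at 7.82, 14.1 and 11.2 FPKM in healthy mucosa and at 29.0, 36.5 and 32.9 FPKM in lesions (1.60 ± 0.27, SE, limma, adjusted p = 0.026). With the cat as a block 7 were called higher, and 1, IKZF2 (Helios), was called lower. IKZF2, also named after its values were seen, was at 3.50, 5.62 and 5.96 FPKM in healthy mucosa and at 1.07, 2.89 and 2.81 FPKM in lesions (-1.25 ± 0.48, SE, limma, adjusted p = 0.137, and 0.0388 with the block). Both NFATC1 and BATF are also used outside T cells.

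Over all 6 lists, 35 of 74 genes had a name, and 15 were called higher and 0 lower (28 and 1 with the cat as a block). The calls include TOX, which had to differ. Names covered 1292 identifiers that were higher in lesions and 637 that were lower. The study reported more differing genes in each direction than were named here, and the shortfall was larger for lower genes. Lower genes of the lists were thus less likely to be seen. At an unadjusted p below 0.05 limma gave 24 higher and 2 lower, the latter TNFSF18 and IKZF2. The background was 5.31% higher and 6.61% lower among all identifiers tested. With the cat as a block 12.2% of all identifiers and 68.9% of the named and higher ones were called higher. Without the 6 genes followed here, 29 had a name and a median difference of 1.56. Of the 27 with a positive difference 10 were called higher, beside 31.5% of all named and higher identifiers. With the healthy library of Jerome left out 3 of the 35 were called higher. Without the healthy library of Sadie, the lesion library of Jerome or that of Sadie, or without all libraries of either cat, limma called 0 higher, with 18 to 22 at an unadjusted p below 0.05. Calls over all identifiers also fell in these fits, as given above.

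Of 12 T cell markers 10 had a name, of which limma called 0 with tissue alone (5 at an unadjusted p below 0.05) and 10 with the cat as a block. CD3D had a difference of 1.93 ± 0.52 (SE, limma, adjusted p = 0.0636, and 0.0227 with the block). CD8A had one of 1.49 ± 0.77 (SE, limma, adjusted p = 0.242, and 0.0241 with the block). That of CD4 was 1.41 ± 0.68 (SE, limma, adjusted p = 0.213, and 0.0243 with the block). CD2, CD5, LCK, ZAP70 and LAT had estimates from 1.32 (ZAP70) to 1.62 (CD2). Markers of other cells moved as well. Macrophages and dendritic cells are among the cells that can carry CD80 and CD86. Their markers summed to 108, 189 and 90.9 FPKM in healthy mucosa and to 441, 503 and 352 FPKM in lesions. Of 7 with a name 3 were called higher, or 6 with the cat as a block: CSF1R (1.87 ± 0.30, SE, limma, adjusted p = 0.0246), CD163 (2.31 ± 0.38, SE, limma, adjusted p = 0.0246) and ITGAM (2.44 ± 0.56, SE, limma, adjusted p = 0.0445), whose call was lost with the block (adjusted p = 0.052). B and plasma cell markers summed to 20.7, 189 and 62.8 FPKM in healthy mucosa and to 319, 886 and 1924 FPKM in lesions, and 2 of 6 with a name were called higher (MS4A1 and CD22), or 6 with the cat as a block. CD22 reached 1 FPKM in lesions alone and so had to differ. Endothelial markers had 2 of 6 called higher, or 6 with the block. limma called 0 of 4 muscle, 0 of 2 keratinocyte and 0 of 2 neutrophil markers (0, 0 and 1 at an unadjusted p below 0.05, and 0, 0 and 1 with the block). The background for these counts is the 31.5% of named and higher identifiers called with tissue alone and the 68.9% called with the block. The part of these cell types in the differences of CD80 and the receptors was not tested.

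Across the 6 libraries, which span both tissues, the log2 values of the 6 genes were alike, and the values that follow are descriptions over few points. Pairs of them had Pearson correlations from 0.79 (CTLA4 and LAG3) to 0.98 (CD28 and CD80). Those of the 6 genes with the macrophage gene CSF1R were as high, from 0.89 (LAG3) to 0.98 (CD80). With PTPRC they ran from 0.80 (LAG3) to 0.99 (CD80). With CD3E they ran from 0.64 (LAG3) to 0.87 (CTLA4) and were lower than with CSF1R for each of the 6 genes. Names were limited to identifiers that differed between the tissues, so high correlations are not particular to these 6 genes. With the muscle gene CKM the 6 genes ranged from 0.22 for CD28 to 0.44 for CTLA4, whereas CD3E had 0.79 with CKM. Among 1928 named identifiers tested, the 3 most like CD28 were PADI2 (r = 0.99), LCP2 and GRAMD1B. Those most like CD80 were SAMSN1, GMFG and SERPING1, and those most like CTLA4 were FERMT3, LCP1 and SLC16A13. For PDCD1 they were WDFY4, TREM2 and HERC5, and for TOX MAST3, MFSD2B and SLC38A10. Genes like LAG3 included TCIRG1 (r = 0.98) and GALK2 (r = 0.97).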

How the data were processed

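RNA was measured in 6 libraries, a lesion and an adjacent healthy biopsy from each of 3 cats. Libraries were strand-specific and made from polyadenylated RNA. The labels give single reads of 50 bp and the methods paired reads of 100 bp. The authors deposited FPKM values from Cuffnorm; the processing notes also name bcl2fastq, HISAT and Cufflinks without versions. No source used here gives a genome build. FPKM sums ran from 1382120 to 1903770 per library, 4688 to 4927 identifiers were listed at 0, and read numbers are not in the files. The depth behind each value is therefore unknown, and no counting interval was given.

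The files hold identifiers without symbols, and the reference gene table matched 0 of them. Symbols came from the study's supplementary gene table, of which 1981 rows were at hand: after flooring at 1, the sorted values of each row agreed to 5 significant digits with those of 1 identifier and no other. No name was given where the symbol had become a date (5 rows) or fewer than 3 values lay above the floor (47 rows). This left 1929 named, 1292 of them higher and 637 lower in lesions. The rows at hand did not cover all differing genes that the study reported, and the shortfall was larger for lower genes. No value of that table is reported.

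FPKM below 1 was raised to 1 and log2 was taken. limma 3.58.1 in R 4.3.3 was used with a mean-variance trend, tissue as the only term and two-sided tests. The fitting code was run on simulated data with independent noise and all 6 libraries. That run cannot bear on the dependence of the calls on single libraries. Python 3.11.15 with pandas 2.3.3, numpy 2.4.6 and matplotlib 3.10.9 did the rest. p-values rest on 3 cats. Same-cat libraries are paired by the labels, and across genes their deviations from the tissue means correlated at 0.49, 0.20 and 0.41 (Bart, Jerome, Sadie), against -0.44 to 0.27 for other pairs. Fits that add the cat as a block are given where a call changes.

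The 6 genes and the gene lists were chosen with earlier results of these data known. Named are the 6 genes and CD3E, named members of the CD28, B7 and T cell lists, up to 3 genes with the smallest p of the other lists, and the 3 genes most correlated with each of the 6. Of these, 1 for LAG3 is not reported here. IKZF1, IKZF2 and the reference gene PTPRC were added outside that rule. Alternatives were other offsets, filters, centring and references, and each library or cat left out.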

Additional observations from a re-analysis of the deposited data

How the results depend on the processing

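The number of the 6 genes called higher (5) was 3 when at least 1 FPKM was required in all 6 libraries (CTLA4 and TOX then drop out), 3 with log2(FPKM + 0.1), 1 without a filter, and between 0 and 4 when a library or a cat was left out. It stayed at 5 with log2(FPKM + 1), quantile normalization or median centring. Over all identifiers 707 were called higher, 593 with log2(FPKM + 0.1) and 205 without a filter. With a library or cat left out they numbered 0 to 1036. The count over the 6 lists (15 higher, 0 lower) was 28 and 1 with the cat as a block, 3 higher without a filter, and 0 to 15 higher and 0 to 1 lower with a library or cat left out. The block changed the call of PDCD1 alone among the 6 genes. Every difference of the 6 genes from healthy mucosa kept its sign, from 1.11 to 2.92, under each of these alternatives that could be run. The cause of these changes was not tested.

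Relative to CD3E no alternative gave a call, but signs changed. With CD3G the difference was -0.13 for CD28, -0.0717 for CTLA4, -0.0657 for LAG3 and -0.43 for PDCD1. That of CTLA4 was 0.106 from the values as deposited. PDCD1 was at -0.0266 with CD3D, -0.0041 with the mean of the CD3 chains and -0.15 with PTPRC; the same values hold with the cat as a block, a combination added after the data were seen. Leaving out a library or cat gave -0.0313 to 0.77 for PDCD1 and -0.62 to 0.21 for TOX, and TOX was at 0.53 with log2(FPKM + 0.1). With log2(FPKM + 1) the ratio to CD28 had a difference of -0.0892 for CTLA4 and -0.0607 for LAG3. Values under 1 FPKM carry little information at an unknown depth, which limits TOX, BTLA and the healthy CTLA4 of Bart.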
